A study of Caenorhabditis elegans with 2 samples.

Results

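The 8 genes cct-1 to cct-8 encode the subunits of the cytosolic chaperonin CCT, and their promoters were searched for binding of the protein F16B12.6. They were taken by symbol from the Ensembl annotation of the WBcel235 assembly, which has the coordinates of ce11, and are 8 of 19973 protein-coding genes on the nuclear chromosomes. The data are ChIP-seq lists from whole, mixed-sex Caenorhabditis elegans at the first larval stage (L1), in 2 biological replicates that form 1 group. All worms were of strain OP114, in which the transgene wgIs114 is integrated and chromosome III bears the mutant allele unc-119(tm4063), and eGFP-tagged F16B12.6 was the target of the immunoprecipitation. The labels do not say which promoter drives the tagged protein. Whole larvae mix all cell types, so binding in a few cells and binding in all cells cannot be told apart. No other strain, stage or treatment was compared.

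CCT, also called TRiC, is a double ring in which each subunit takes a fixed place. It encloses newly made proteins and uses ATP to help them fold. Actin and tubulin are its best known substrates, and several WD-repeat proteins also pass through it. Prefoldin delivers unfolded actin and tubulin to the ring. The subunits are related to each other but each is needed, so that their genes are known as housekeeping genes in many animals.

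A gene was called bound when the summit of a thresholded peak lay between 1000 bp upstream and 200 bp downstream of its annotated 5' end. By this rule 6 of the 8 subunit genes were bound, cct-1, cct-4, cct-5, cct-6, cct-7 and cct-8, while cct-2 and cct-3 were not. The same rule called 2356 of all 19973 protein-coding genes, which is 11.8%. Each bound gene had a single thresholded summit in its window, and all 6 summits lay upstream of the annotated 5' end. Most of the window is upstream by this rule, and no share over all bound genes is given for these counts. In yeast, the subunits fall into a side of the ring with high affinity for ATP (CCT1, CCT2, CCT4 and CCT5) and a side with low affinity. Of the 4 worm genes that correspond to each side, 3 were bound. The members were proposed with results of these data known, so no test of the group was made.

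The sequences at the 6 bound summits are shown first because 4 of them, all but those of cct-5 and cct-7, carry a shared element. Each line gives 100 bases of the plus strand of WBcel235, with the summit at base 51, and capitals mark GGGTCNC, searched on both strands.

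cct-8, chrIV:1094307-1094406: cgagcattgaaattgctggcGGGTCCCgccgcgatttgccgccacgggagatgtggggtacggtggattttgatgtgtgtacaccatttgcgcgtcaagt
cct-5, chrIII:4508520-4508619: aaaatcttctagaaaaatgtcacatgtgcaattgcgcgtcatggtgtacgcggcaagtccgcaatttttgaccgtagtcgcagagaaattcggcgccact
cct-1, chrII:8185163-8185262: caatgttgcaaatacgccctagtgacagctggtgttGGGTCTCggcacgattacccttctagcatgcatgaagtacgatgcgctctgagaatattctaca
cct-7, chrV:1871935-1872034: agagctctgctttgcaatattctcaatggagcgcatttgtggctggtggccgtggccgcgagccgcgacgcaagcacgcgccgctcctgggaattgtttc
cct-6, chrIII:5855926-5856025: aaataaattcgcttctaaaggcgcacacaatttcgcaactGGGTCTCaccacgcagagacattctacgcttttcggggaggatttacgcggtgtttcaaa
cct-4, chrII:8283380-8283479: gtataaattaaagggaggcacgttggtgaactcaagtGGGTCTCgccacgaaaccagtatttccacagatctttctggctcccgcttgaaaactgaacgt

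The strongest binding was at cct-8 (WBGene00021934, IV, 1087108 to 1093920, minus strand), which encodes the theta subunit. Its peak spanned 1094229 to 1094503 and had a signal value, the peak caller's measure of strength, of 1248 in the pooled list. The signal was 711 in the list of replicate 1 and 538 in that of replicate 2. Signals are comparable only within a list, so ranks were set side by side. The cct-8 peak ranked 3 of the 2183 thresholded peaks, 4 of the 30000 relaxed entries of replicate 1 and 2 of the 30000 of replicate 2. Both replicates thus placed it among their few strongest entries. Its summit was 437 bp upstream of the 5' end in the pooled list, with relative positions of -437 and -441 bp in replicates 1 and 2.

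The epsilon subunit gene cct-5 (WBGene00000380, III, 4499188 to 4508114, minus strand) came next. The peak at cct-5, from 4508449 to 4508679, had a signal of 474 and ranked 124 in the pooled list. It ranked 136 in replicate 1 (signal 274) and 109 in replicate 2 (signal 194). The replicate summits were at relative positions -459 and -463 bp, and the pooled summit was at -456 bp. The ranks differed little between replicates.

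For cct-1 (WBGene00000377, II, 8185443 to 8187601, plus strand), the alpha subunit gene, the peak ranked 533 with a signal of 129. Replicate 1 gave cct-1 rank 561 (signal 71.0) and replicate 2 rank 511 (signal 55.5). With 95 bp, from 8185150 to 8185244, the cct-1 peak was narrow: 2.47% of thresholded peaks were at most that wide, and 70.7% had a width of 250 bp. Its entries in both replicate lists were 230 bp wide, which is the median width there.

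The genes of the eta and zeta subunits had peaks near the middle of the thresholded list. At cct-7 (WBGene00020391, V, 1872246 to 1875505, plus strand) the peak from 1871860 to 1872109 had a signal of 56.2 and ranks of 961 pooled, 974 in replicate 1 and 981 in replicate 2. At cct-6 (WBGene00000381, III, 5853530 to 5855687, minus strand) the peak from 5855851 to 5856100 had a signal of 50.6 and ranks of 1037 pooled, 1049 in replicate 1 and 1167 in replicate 2. The median signal of thresholded peaks was 47.9, so both lay close to it. Their summits were 261 and 289 bp upstream of the cct-7 and cct-6 5' ends.

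The weakest bound member was the delta subunit gene cct-4 (WBGene00000379, II, 8283667 to 8285711, plus strand), and its peak rested on replicate 1. The peak at cct-4, from 8283305 to 8283554, had a signal of 23.3 and ranked 2052 of 2183, against a lowest thresholded signal of 21.7. Replicate 1 had an entry with the same summit, at -237 bp, with a signal of 21.3 and rank 1429. Replicate 2 had no entry that overlapped the peak. Its nearest entry lay 314 bp away, at a relative position of 77 bp, with a signal of 3.83 and rank 10944. Of all thresholded peaks, 22 of 2183 (1.01%) likewise overlapped no entry of replicate 2. Without such peaks 5 of 8 subunit genes were bound, against 11.7% of all genes.

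**Figure D1:**
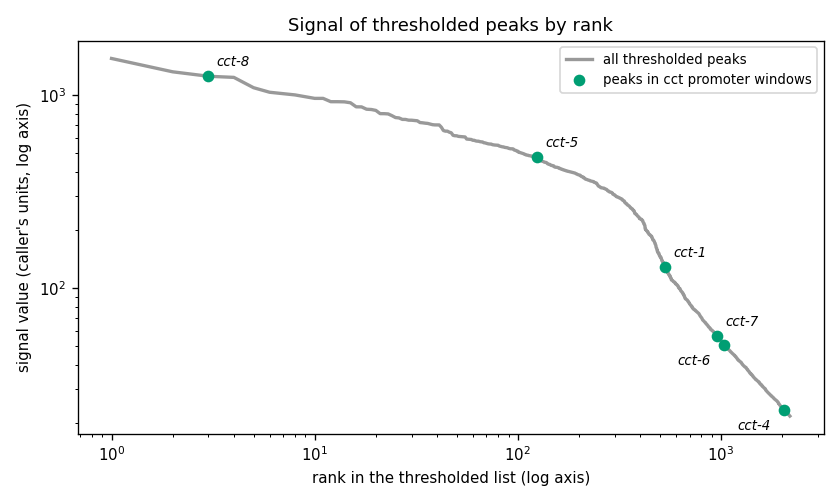
Signal value (caller's units, log axis) of the 2183 thresholded peaks against their rank (log axis), with the peaks of the 6 bound cct genes as green points. The points run over nearly the whole list, from rank 3 at cct-8 to rank 2052 at cct-4.

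Although their products form a single complex, the subunit genes thus differed widely in peak strength. The cct-8 signal was 53.6 times the cct-4 signal within the pooled list and 26.1 times the thresholded median. The order cct-8, cct-5, cct-1, cct-7, cct-6 was the same in the pooled list and in each replicate. Between neighbours in this order, cct-7 and cct-6 had ranks 974 and 1049 in replicate 1 and 981 and 1167 in replicate 2, a small distance that kept its direction in both. For the 5 peaks found in both replicates, the replicate summits were 2 to 7 bp apart. Over the 2159 thresholded peaks with an entry in both, the median distance was 15 bp and 38.4% were within 10 bp. With 2 replicates no error of a rank beyond this pair of values could be formed, and the number of reads behind each entry is unknown.

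**Figure D2:**
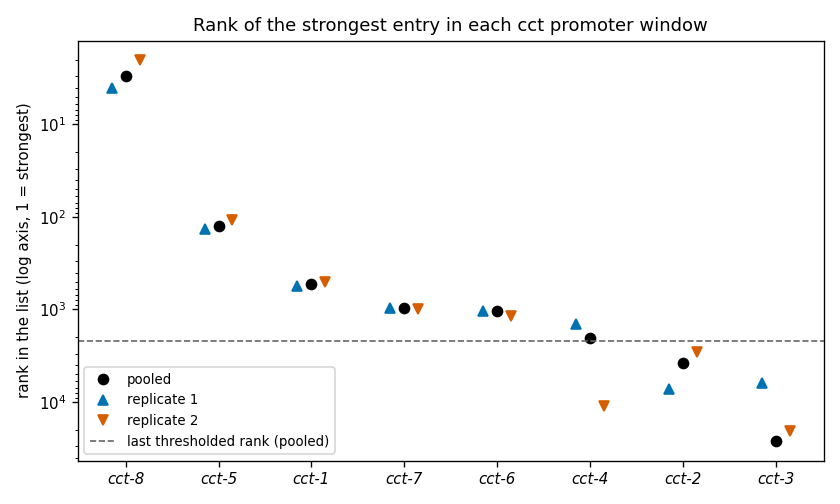
Rank of the strongest entry in each cct promoter window (log axis, 1 is strongest) in the pooled list (circles), replicate 1 (upward triangles) and replicate 2 (downward triangles). The 3 lists lie close together for cct-8, cct-5, cct-1, cct-7 and cct-6 and apart for cct-4, cct-2 and cct-3; the dashed line marks rank 2183.

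The beta subunit gene cct-2 (WBGene00000378, II, 8927741 to 8929815, plus strand) had entries below the threshold. Its strongest pooled entry lay at -320 bp with a signal of 11.8 and rank 3795, which is 1612 ranks below the last thresholded peak. In replicate 2 the strongest entry was at -305 bp (signal 7.16, rank 2894). Replicate 1 had 3 weak entries in the window, of which the strongest lay at -703 bp (signal 5.96, rank 7241) and another at -274 bp (signal 5.39, rank 9248). The strongest pooled entry and the strongest of replicate 2 were therefore 15 bp apart, while the strongest of replicate 1 was elsewhere.

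The gamma subunit gene cct-3 (WBGene00018782, II, 2233540 to 2243539, plus strand) had weak entries whose summits lay apart in the 3 lists. The pooled entry at cct-3 had its summit 9 bp downstream of the 5' end, in the first bases of the coding sequence, with a signal of 4.77 and rank 26723 of 30000. Replicate 1 had its single entry at -814 bp (signal 6.32, rank 6285) and replicate 2 at -106 bp (signal 2.77, rank 20703). The pooled entry overlapped that of replicate 2 and not that of replicate 1, whose summit was 823 bp away. The relaxed lists hold background as well as peaks, and 41.0% of all protein-coding genes had some pooled entry in their window, so such an entry does not set a gene apart. The authors' −log10 q value, as read from the layout, was 0.151 for the pooled cct-3 entry and 1.82 for the pooled cct-2 entry, against the shared maximum of 3.71 in all thresholded peaks. The nearest thresholded summit was 13473 bp from the pooled cct-3 entry and 42050 bp from the pooled cct-2 entry.

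All 8 subunit genes had as their nearest upstream protein-coding neighbour a gene on the opposite strand, an arrangement called divergent. It was found for 8420 of the 19973 genes (42.2%). For the bound members the neighbours were Y55F3AR.2 (at cct-8), F25F2.1 (cct-5), mig-5 (cct-1), T10B5.4 (cct-7), alh-9 (cct-6) and nst-1 (cct-4). The gene mig-5 encodes a Dishevelled protein of the Wnt pathway, alh-9 an aldehyde dehydrogenase, and nst-1 a nucleolar GTPase of the nucleostemin family. Each of the 6 summits also lay in the window of this neighbour and in that of no further protein-coding gene, so all 6 neighbours were bound by the same rule through the same peak. Over the whole list, 690 of the 1661 thresholded summits in a promoter window (41.5%) lay in windows of 2 or more genes.

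In all 6 cases the summit was nearer to the 5' end of the neighbour than to that of the cct gene. In any divergent pair with a summit between the 5' ends, a single gene is the nearer, barring a tie. The count was not formed over other divergent genes, so it is a description and does not set the cct genes apart. The distances were 437 bp to cct-8 and 184 bp to Y55F3AR.2, and 456 bp to cct-5 and 285 bp to F25F2.1. The cct-1 summit was 230 bp from cct-1 and 190 bp from mig-5. The cct-7 summit was 261 bp from cct-7 and 178 bp from T10B5.4. In relation to the space the imbalance was largest at cct-6, with 289 bp to cct-6 and 42 bp to alh-9, and smallest at cct-4, with 237 bp to cct-4 and 222 bp to nst-1. The medians over the 6 were 275 bp to the cct gene and 187 bp to the neighbour. Measured from the cct end, the summits stood at 51.6% (cct-4), 54.8% (cct-1), 59.5% (cct-7), 61.5% (cct-5), 70.4% (cct-8) and 87.3% (cct-6) of the space between the 5' ends. The differences were smallest at cct-4 (15 bp) and cct-1 (40 bp). A shift of the summit changes both distances at once, so a difference is not on the scale of a distance between summits. The cct-1 replicate summits were 5 bp apart, and at cct-4 replicate 2 had no overlapping entry to compare. Over all peaks found in both replicates the median distance between summits was 15 bp.

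**Figure D3:**
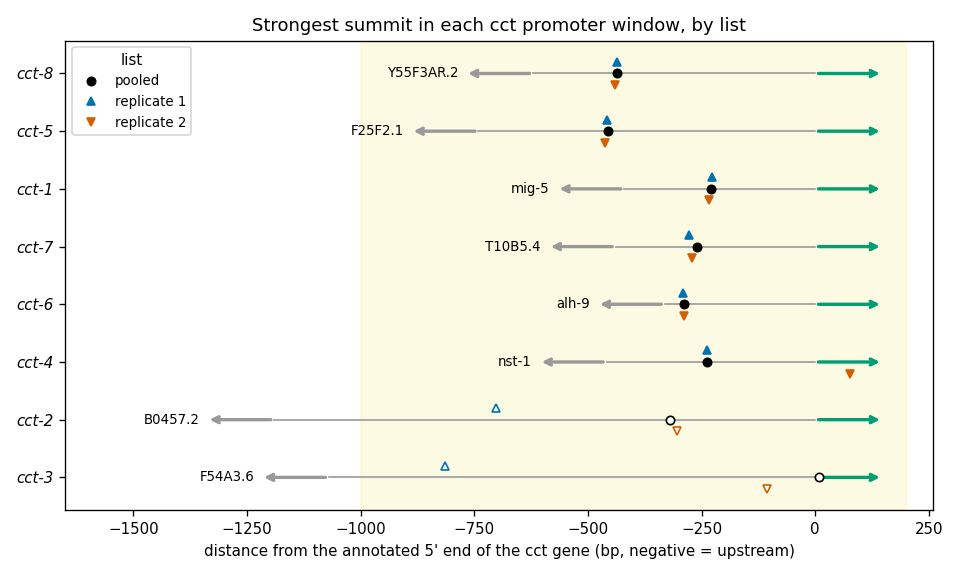
Strongest summit in each cct promoter window in the pooled list (circles) and replicates 1 and 2 (triangles), by distance from the cct 5' end in bp; filled symbols are bound genes, green arrows the cct genes, grey arrows the divergent neighbours, and shading the promoter window. At the 6 bound genes the pooled summit lies between the divergent 5' ends, and the replicates depart from it by at most 16 bp except for replicate 2 at cct-4.

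These positions are relative to annotated 5' ends. The distance from the annotated 5' end to the first coding base was 1 to 30 bp in the 8 cct genes. In trans-spliced worm genes the annotated 5' end can be the splice site and not the start of transcription, which these data do not show. At the neighbours the same distance was 9 bp for Y55F3AR.2, 15 bp for mig-5, 20 bp for nst-1, 74 bp for F25F2.1, 107 bp for T10B5.4 and 1191 bp for alh-9. Between coding starts, the cct-6 summit was therefore nearer to cct-6 (294 bp) than to alh-9 (1233 bp). The cct-4 and cct-7 summits were also nearer to the cct coding start, by this measure (238 and 267 bp, against 242 bp to that of nst-1 and 285 bp to that of T10B5.4). For cct-8, cct-5 and cct-1 the neighbour stayed nearer.

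Short non-coding RNA genes were annotated in 2 of the 6 bound spaces. The cct-7 summit lay inside T10B5.13, of 96 bases, whose 5' end is at -266 bp from cct-7. Y55F3AR.4, of 123 bases, lay between the cct-8 5' end and the summit, 148 bp from the summit. The cct-7 summit was the only bound cct summit of the 6 inside an annotated gene. Apart from the neighbour they shared, the peaks mostly stood alone. The nearest other thresholded summit was 3193 bp away at cct-7 and 7132 bp at cct-4, and between 15969 and 32914 bp at cct-6, cct-1, cct-8 and cct-5. The median over all thresholded peaks was 10487 bp.

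The 6 bound members had shorter spaces to the neighbour than cct-2 and cct-3. The space was 330 bp at cct-6, 419 bp at cct-1, 438 bp at cct-7, 458 bp at cct-4, 620 bp at cct-8 and 740 bp at cct-5. At the genes without a thresholded peak it was 1069 bp (cct-3, next to F54A3.6) and 1189 bp (cct-2, next to B0457.2), and neither neighbour was bound. Over all divergent genes the share bound also varied with the space. It was 45.4% of 1065 genes for a space of 251 to 500 bp, where all 4 members were bound, and 29.2% of 1620 genes for 501 to 1000 bp, where both members were. It was 12.5% of 1554 genes for 1001 to 2000 bp, where neither member was. Among genes with a neighbour on the same strand upstream, 6.41% of 10157 were bound. Divergent genes share windows, so they are not independent units.

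**Figure D4:**
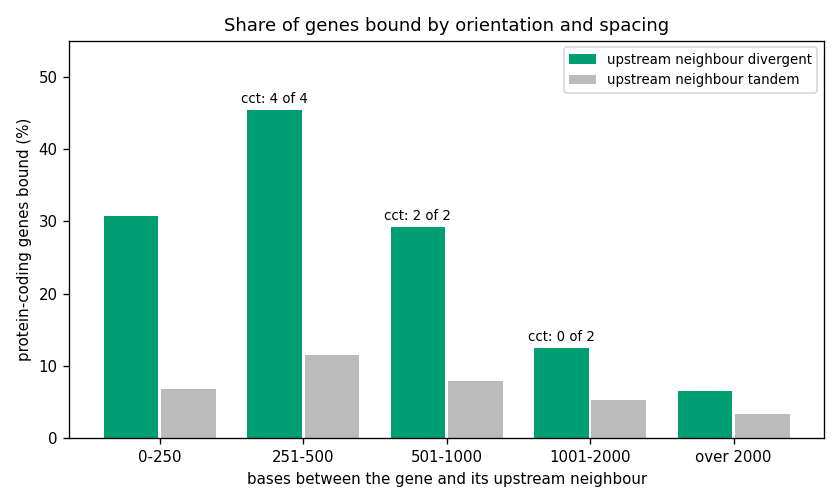
Percent of protein-coding genes bound, by the number of bases to the upstream neighbour, for divergent (green) and tandem (grey) neighbours, with the count of cct genes bound written over the bars that hold them. The highest bar, 45.4%, is for divergent genes 251 to 500 bp apart, which holds 4 of the cct genes.

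Of the 791 divergent pairs with a space in the range of the bound members (330 to 740 bp), 290 (36.7%) had exactly 1 thresholded summit between their 5' ends. In these pairs the summit stood at a median of 33.0% of the space from the nearer 5' end (quartiles 22.3 and 41.1%). By the same measure cct-4 and cct-1 had more central summits than the upper quartile, at 48.4 and 45.2% from the nearer end, and cct-6, at 12.7%, was closer to an end than the lower quartile.

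On the downstream side, 5 of the 8 genes had a same-strand gene within 300 bp. The same count was not formed over all genes. Seen from the downstream gene, 10.9% of all genes had a same-strand upstream neighbour at 0 to 250 bp and 6.78% at 251 to 500 bp. The 5 downstream genes were mrpl-50, a mitochondrial ribosomal protein gene 25 bp after cct-2, csn-4, a COP9 signalosome gene 94 bp after cct-8, and F54A3.2 102 bp after cct-3. The others were the bZIP factor gene atf-7 142 bp after cct-5, and ddx-23, a splicing helicase gene 260 bp after cct-6. None of these 5 had a thresholded summit in its own window. Few genes in such a place were bound: with a same-strand neighbour upstream, 6.79% were for a space of 0 to 250 bp and 11.5% for 251 to 500 bp. Of the downstream neighbours on the opposite strand, zig-11, which overlaps the end of cct-7, was bound, and those of cct-1 and cct-4 (T05C12.8 and nlp-55) were not.

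The element GGGTCNC, which stands in capitals in the sequences above, was present within 100 bp centred on the summit at cct-8, cct-1, cct-6 and cct-4, which is 4 of the 6 bound genes. It was present at 144 of all 2183 thresholded summits (6.60%), at 2.14% of the other pooled entries, and at 1.01% of sites 200 bp to the right of those summits on the plus strand. It was chosen after the member sequences had been read, so its count among the members is a description and has no test. All 4 matches were on the plus strand of the genome, which is the coding strand of cct-1 and cct-4 and the opposite strand for cct-6 and cct-8. Relative to the summit their first base was at -10 bp (cct-6), -13 bp (cct-4), -14 bp (cct-1) and -30 bp (cct-8).

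The likeness reached somewhat beyond these 7 bases. The positions fixed in GGGTCNC were alike because the 4 members were picked for that element, and the others were read from these same sequences. Over 13 bases from the start of the element, the 4 members read as follows (WBcel235, plus strand), with 9 positions the same in all, shown in capitals.

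cct-1, chrII:8185199-8185211: GGGTCtCggCaCG
cct-4, chrII:8283417-8283429: GGGTCtCgcCaCG
cct-6, chrIII:5855966-5855978: GGGTCtCacCaCG
cct-8, chrIV:1094327-1094339: GGGTCcCgcCgCG

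A match to these 9 positions was found at 53 of 2183 thresholded summits (2.43%), at 0.403% of the other pooled entries, and at 0.275% of the sites 200 bp beside. The 53 include the 4 members from which the pattern was taken, so this is a description without a test. The 4 members that hold the element ranked 3, 533, 1037 and 2052, so among the members it stood at peaks of high and of low rank. Of the 100 strongest peaks 3 held GGGTCNC (3.0%), a lower share than the 6.6% of all thresholded peaks. Over the whole promoter windows, cct-2 and cct-3 each also had 1 match, at -489 and -867 bp, away from their pooled entries. A match somewhere in the window was found for 15.9% of all protein-coding genes and 23.5% of all bound ones.

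A pair of further motifs was searched on both strands of the same 100 bp. ACGCAG, which earlier results of these data gave as frequent at summits, was found at cct-6 only, at the summit itself, and at 18.8% of all thresholded summits. In cct-6 it begins 10 bp after the first base of GGGTCNC and ends 5 bp past the summit. The heat-shock element GAANNTTC, which is bound by the stress factor HSF-1, was found at cct-1, from 38 to 45 bp past the summit. It was at 3.94% of all thresholded summits, less often than at the other pooled entries (7.3%) or at sites 200 bp beside (7.7%). With 60 bp searched the heat-shock element was found at none of the 6 (1.74% of all thresholded summits) and with 200 bp at cct-1 and cct-8 (11.7%). The sites beside held it in 5.13 and 14.6% at these widths. The content of G and C in the 100 bp was 57% at cct-8 and 60% at cct-7 and between 46 and 48% at the other 4, against a median of 47% over thresholded summits and 37% over the other pooled entries.

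The call of 6 bound genes was kept, with the same 6 genes, with 500 or 2000 bp upstream (9.94 and 14.5% of all genes bound) and with any transcript's 5' end or any base of the peak (12.3% of all genes in each case). It was also kept with the 2183 strongest entries of replicate 1 (11.7%), while those of replicate 2 (11.3%) gave 5, without cct-4. The stronger 1091 peaks also gave 5, without cct-4 (6.83%). When each summit was given only to the nearest protein-coding 5' end, no cct gene was bound, while 8.12% of all genes were. The distances to the divergent neighbours given above account for that count by construction.

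Genes that work with CCT were bound to different extents, against 11.8% of all protein-coding genes by the same rule. Of the 6 prefoldin genes 4 were bound, with signals of 107 at pfd-1 (rank 591), 71.0 at pfd-3 (rank 794), 62.3 at pfd-6 (rank 879) and 24.4 at pfd-5 (rank 1969). All were below the peaks at cct-8, cct-5 and cct-1. Among the partners and WD-repeat substrates searched, txdc-9 was the 1 bound gene of 5, with a signal of 699 and rank 41. Its relatives in yeast and mammals are phosducin-like proteins that bind CCT. The txdc-9 summit lay at -244 bp, and its upstream neighbour was also divergent, 379 bp away. That summit was thus nearer to the 5' end of the neighbour than to that of txdc-9.

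Among the genes of the main substrates some were bound and most were not. By the same rule 11.8% of all protein-coding genes were bound, a lower share than in each list of this paragraph. These lists are small, so a single call moves a share widely, and the shares were not tested. Of 16 tubulin genes 5 were bound (31.2%), led by tbb-1 (signal 104, rank 607), tba-2 (58.2, rank 938), tbb-2 (47.2, rank 1104) and tbg-1 (31.5, rank 1579). The tbg-1 summit lay at -837 bp, past the space of 91 bp to its same-strand upstream neighbour. Of 5 actin genes act-2 was bound (25.7, rank 1900). Of 7 genes for folding cofactors of tubulin, tbcd-1 (386, rank 198) and coel-1 (25.0, rank 1931) were bound. Among 11 other chaperone genes 6 were bound, led by hsp-60, which encodes the mitochondrial chaperonin (81.6, rank 706), the endoplasmic reticulum chaperone gene hsp-3 (72.1, rank 786), the cytosolic Hsp70 gene hsp-1 (46.4, rank 1126) and the co-chaperone gene sti-1 (36.2, rank 1390). The symbol daf-21 had no match because that gene is listed as hsp-90, which was not bound.

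**Figure D5:**
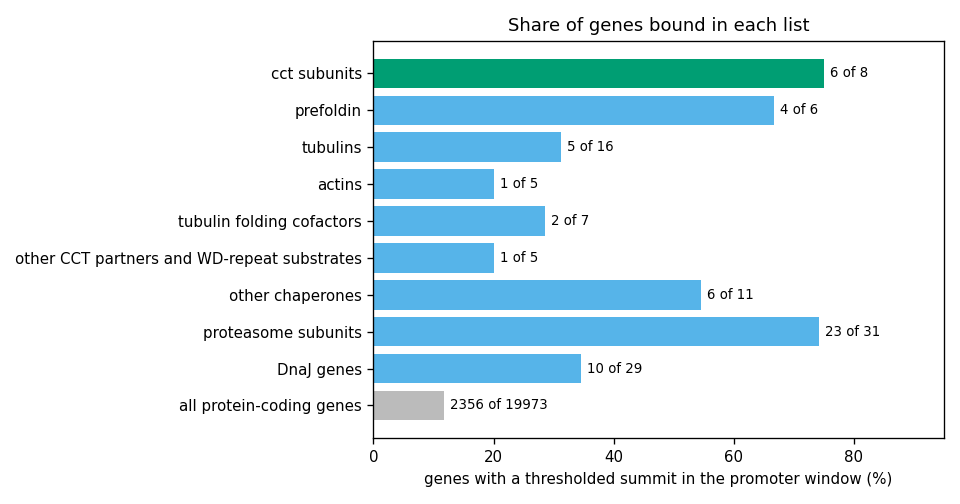
Percent of genes in each list with a thresholded summit in the promoter window, with counts beside the bars. The cct subunits (6 of 8) and proteasome subunits (23 of 31) have similar shares, and all protein-coding genes (2356 of 19973) the lowest, 11.8%.

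Set beside other complexes and chaperones, the share of bound cct genes (75.0%) was close to that of proteasome subunits, with 23 of 31 (74.2%), while DnaJ co-chaperones had 10 of 29 (34.5%). Of the 33 proteasome symbols searched, rpn-4 and rpn-6 had no match and are not counted. With 8 genes a single call moves the share widely, and these shares were not tested against each other. The median rank of the bound genes was 747 for cct, 974 for proteasome and 888.5 for DnaJ genes, against 930.5 over all bound genes. The strongest in each list were cct-8 (signal 1248), rpn-11 (739, rank 30) and dnj-10 (317, rank 279). Peak strength also spread widely within the proteasome, down to pas-1 (31.4, rank 1582) and rpn-3 (29.1, rank 1681), whose peak is shared with the chaperone gene hsp-110. The pas-1 summit lay at -790 bp, past the space of 106 bp to its same-strand upstream neighbour.

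In rank, the peaks most like those of the members belonged to genes of varied kinds. Next to cct-8 stood a peak in the promoter windows of smgl-2 and Y37E11AM.2 (rank 2, signal 1316) and a peak outside any promoter window (rank 4, signal 1232). The cct-5 peak stood between T26G10.1 (rank 123, signal 474) and C30B5.2 with rbmx-2 (rank 125, signal 472), and the cct-1 peak between F59C6.18 (rank 532, signal 129) and W03F8.4 (rank 534, signal 128). The cct-6 peak stood between F26F2.7 (rank 1036, signal 50.7) and rde-4 with cox-14 (rank 1038, signal 50.6), and the cct-4 peak followed spc-1 (rank 2051, signal 23.3). The peaks next to that of cct-7 and the peak after that of cct-4 lay in no promoter window. Likeness here is rank in 1 pooled list of 1 condition, and no other cct gene was the nearest in rank to a member.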

How the data were processed

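ChIP-seq peak lists on ce11 from 2 replicates of 1 group were used, 4 lists in all; the ce10 lists were not used because the annotation is on ce11. Per the labels, size selection was 150 to 350. Per the authors' deposited readme notes, the relaxed lists (30000 entries each, peaks with background) were made from alignments of 1 replicate, or of both pooled, and a further file that the control-normalized signal also used, and an irreproducible discovery rate analysis gave the thresholded list (2183 peaks). Aligner, peak caller, threshold and read numbers: not given in the sources used here. A relaxed list of fixed length holds background by design, so low ranks mix peaks and background. Column 7 was read as the deposited signal value, with unstated scaling, and column 9 as the deposited −log10 q value, by their place in the narrowPeak layout. All 2183 thresholded peaks were in the pooled list with identical values. Signals were ranked within lists only.

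Summits (start plus column 10, written 1-based) were assigned to promoter windows of Ensembl release 115 genes, and sequences were read from the RefSeq copy of WBcel235. Overlap meant at least 1 bp. No tests were made: counts are given beside the same rule over all genes. Window assignment was tested on simulated peaks. The genes, lists and motifs were chosen with earlier results of these data known. Besides the cct genes, those named are the neighbours, up to 4 bound genes with the highest signal in each list, and the peaks next in rank; rpn-3 and pas-1 were picked for their low values. The alternatives covered other windows, assignments, lists, replicates and sequence widths. Python 3.11.15, NumPy 2.4.6, pandas 2.3.3 and matplotlib 3.10.9 were used.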

Additional observations from a re-analysis of the deposited data

How the results depend on the processing

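The count of bound cct genes was 6 (11.8% of all genes by the same rule). It moved by more than 1.5 times under a single alternative of those run. With each summit assigned to the nearest protein-coding 5' end only, it was 0 (8.12% of all genes). It was 8 when any pooled entry counted, a rule that also called 41.0% of all genes. Under the other alternatives it was 5 or 6 (6.83 to 14.5% of all genes). With a single replicate it was 5 to 6, the lower value without replicate 1. The heat-shock element was found at 1 of the 6 summits within 100 bp, at 0 within 60 bp and at 2 within 200 bp. Its shares over all thresholded summits were 3.94, 1.74 and 11.7%. ACGCAG and GGGTCNC had the same counts among the 6 at all widths. Ranks from a single replicate departed from the pooled rank by more than the standard deviation between replicates in 6 of 16 cases, and summit positions in 9. That standard deviation comes from 2 values, so these counts do not measure stability. At cct-7 ranks of 974 and 981 against 961 counted as departures (standard deviation 4.95). At cct-4 rank 1429 in replicate 1 against 2052 did not (standard deviation 6728). Without replicate 1, cct-4 had rank 10944 in place of 2052. Without replicate 2, cct-3 had rank 6285 in place of 26723 and cct-2 had 7241 in place of 3795. The causes were not tested. No paired analysis was possible because there is 1 group. The number of reads is unknown, so weak entries carry no depth-based error.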
